A study of Rattus norvegicus with 9 samples.

Results

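The genes described here are the MHC class II genes of the rat and Ciita, the regulator that switches them on. They were the probes named Ciita, Cd74, RT1-Da, RT1-Ba, RT1-Bb, RT1-Db1, RT1-DMa or RT1-DMb on Agilent expression arrays, 8 genes with 9 probes among 45598. The genes were selected on their difference between the groups of these same arrays, so that difference is given as a description, with no test. All 9 animals were female spontaneously hypertensive rats (SHR), an inbred strain with high blood pressure. Ovaries were removed at 4 weeks of age, so both groups lack ovarian hormones. After 1 week of recovery, a subcutaneous minipump delivered PEG alone to 4 rats (OV) or estradiol in PEG, at 2 µg per day, to 5 rats (OV+E2). The amygdala of both sides was taken at 9 weeks of age, 5 weeks after ovariectomy, and 200 ng of RNA from each rat was put on 1 array.

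MHC class II molecules present peptides from the endosome to CD4 T cells, and in brain tissue they are found mainly on microglia and on macrophages and dendritic cells at its borders. Each molecule is a pair of chains: in the rat RT1-Da with RT1-Db1 form RT1-D, the counterpart of HLA-DR, and RT1-Ba with RT1-Bb form RT1-B, the counterpart of HLA-DQ. Cd74, the invariant chain, holds the new pair until it reaches the endosome, where the RT1-DMa and RT1-DMb pair helps exchange its last fragment for a peptide. Ciita is a coactivator that does not bind DNA itself but joins factors sitting on the X and Y boxes of class II promoters, and interferon gamma is its best known inducer.

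The X and Y boxes named above belong to class II promoters. For 5 of the genes the stretch from 130 to 26 bases before the annotated start of transcription is shown. The sequences are RefSeq's on build GRCr8, 5′ to 3′ on the strand of the gene. In capitals are the Y box core (GATTGG) and, where those letters occur, a part of the X box (ACNGATG). A stretch without those letters may still hold an X box.
RT1-Da: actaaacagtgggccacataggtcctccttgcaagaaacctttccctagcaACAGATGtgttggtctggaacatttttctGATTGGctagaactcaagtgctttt
RT1-Db1: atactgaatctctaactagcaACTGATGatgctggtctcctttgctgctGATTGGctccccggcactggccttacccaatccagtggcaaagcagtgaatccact
RT1-Ba: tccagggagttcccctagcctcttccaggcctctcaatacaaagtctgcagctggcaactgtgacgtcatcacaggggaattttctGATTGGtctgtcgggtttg
RT1-Bb: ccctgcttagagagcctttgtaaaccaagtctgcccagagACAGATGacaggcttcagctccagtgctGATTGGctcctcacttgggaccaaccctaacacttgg
RT1-DMa: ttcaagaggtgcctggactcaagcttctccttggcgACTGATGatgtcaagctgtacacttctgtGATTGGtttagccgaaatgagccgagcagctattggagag

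On GRCr8 these stretches lie at chr20:4515285-4515389 (RT1-Da, plus strand), chr20:4560188-4560292 (RT1-Db1, minus), chr20:4576927-4577031 (RT1-Ba, plus), chr20:4604144-4604248 (RT1-Bb, minus) and chr20:4712361-4712465 (RT1-DMa, minus). The table of promoters held a window of 300 bases, 250 before to 50 after the start, for 6 of the 8 genes, the sixth being Cd74. Ciita and RT1-DMb were not matched. The stretch of Cd74 is not shown because it overlaps the annotated gene. Its window is counted among the 6 but may not be the upstream promoter, so its missing matches say nothing about that promoter. The motifs were chosen after these promoters had been seen. Searched on both strands, the Y box core lay in 5 of the 6 windows and in 14.8% of all 33469 windows, and the X box part lay in 4 of 6 against 10.2%. An X box part followed by a Y box core within 40 bases on the strand of the gene was found in RT1-Da, RT1-Db1, RT1-Bb and RT1-DMa, with 28 or 29 bases between their first bases. Only 17 of all windows (0.0508%) held that arrangement, and 2 of the other 13 belong to RT1-Db2 and RT1-DOb, further class II genes. The interferon-type GAS motif (TTCNNNGAA) was in none of the 6 windows and in 8.87% of all. The full estrogen response element, searched as GGTCA and TGACC with 3 bases between them, was in none of the 6 and in 0.0269% of all. A match is a run of letters and no evidence of binding, and a missing match says only that the letters are not in the window.

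**Figure D1:**
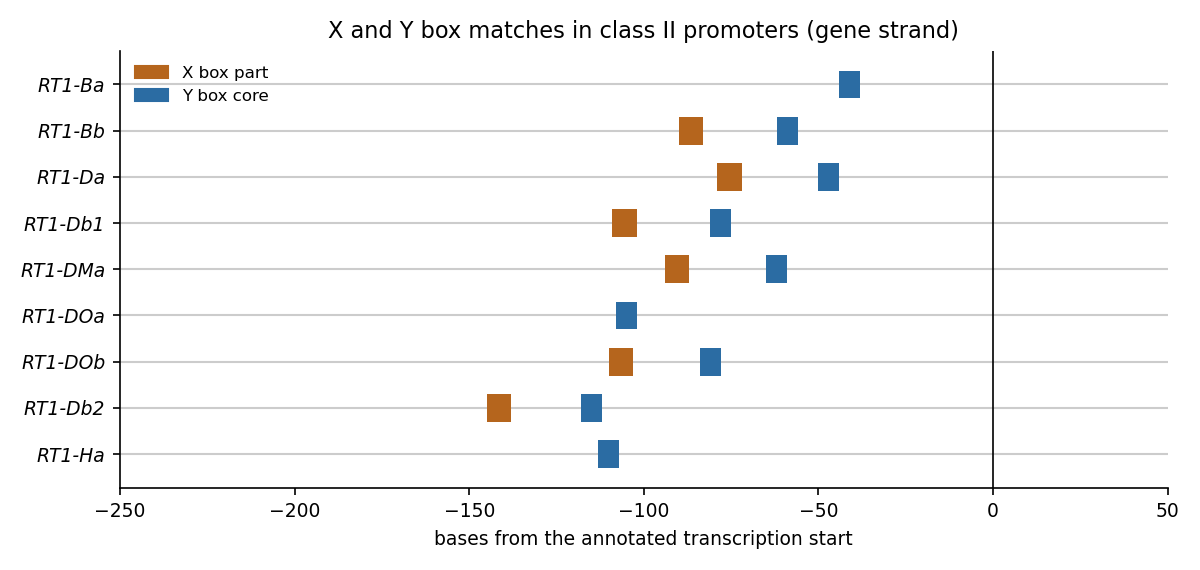
X box part and Y box core on the gene strand in the promoters of class II genes, plotted by distance in bases from the annotated start of transcription. RT1-Bb, RT1-Da, RT1-Db1 and RT1-DMa, and the further genes RT1-DOb and RT1-Db2, carry an X match followed by a Y match, and RT1-Ba, RT1-DOa and RT1-Ha a Y match alone.

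The arrays read each gene through a probe of 60 bases. The probes of RT1-Db1 and RT1-Bb, the beta chains, and of the RT1-DM pair, whose values part from those of the other genes below, are shown in lower case.
RT1-Db1: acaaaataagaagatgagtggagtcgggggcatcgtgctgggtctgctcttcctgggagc
RT1-Bb: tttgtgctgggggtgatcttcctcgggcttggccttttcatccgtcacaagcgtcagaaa
RT1-DMa: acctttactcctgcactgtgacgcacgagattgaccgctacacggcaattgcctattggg
RT1-DMb: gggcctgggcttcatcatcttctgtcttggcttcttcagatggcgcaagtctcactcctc

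Per the file headers, which use rat build rn4, these probes lie at chr20:4672665-4672724 (RT1-Db1), chr20:4732187-4732246 (RT1-Bb), chr20:4844372-4844431 (RT1-DMa) and chr20:4830313-4830372 (RT1-DMb), all on the minus strand. The probe of RT1-Da lies at chr20:4641104-4641163 and that of RT1-Ba at chr20:4700973-4701032, both on the plus strand. Cd74 is read at chr18:56765468-56765527 (plus strand) and Ciita by a pair of probes at chr10:5086386-5086445 and chr10:5087176-5087235 (minus strand). The sources used here do not say whether a probe falls in coding sequence or in a UTR. Class II genes are close relatives and differ between rat strains, and how far a probe also reads a related transcript or an SHR allele was not tested.

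Signals are given as a percent of the 75th percentile of the array, so values are comparable between rats for 1 gene but not between genes. That percentile was 556.8 to 737.6 units on 8 arrays and 129.7 on OV replicate 3. The same 8 arrays had 29052 to 31395 probes well above background and a mean correlation of 0.9795 to 0.983 with the others, against 24225 probes and 0.9467 on OV replicate 3. The differences of the class II genes and Ciita, and of the other genes named, are therefore also given without that rat. For OV replicate 3 the authors' deposited value table does not follow its scanner file, and which of them holds that rat's true level was not settled. The arrays sat on 2 slides, the second with a single OV array (OV replicate 5) and OV+E2 replicates 3, 4 and 5. Of the 8 amygdala markers 6 were measured, and their summed signal was 1356 to 1809% in OV and 1463 to 2498% in OV+E2. Over the whole array limma called 0 of 30215 tested probes (0.00%) at an adjusted p under 0.05, and the smallest adjusted p was 0.155. Unadjusted, 3134 probes (10.4%) had p under 0.05, 2166 of them lower (7.17%) and 968 higher in OV+E2. Labels do not say whether the rats of a group shared a litter or cage.

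A probe was tested when well above background on at least 4 of the 9 arrays, which 7 of the 9 probes were, 1 for each gene except RT1-Ba. Of these 7 genes, 6 had a lower mean in OV+E2 than in OV, and the median log2 difference (OV+E2 minus OV) was −0.59, beside 0.00 over all tested probes. Without OV replicate 3 the median was −0.54 and all 7 were lower. In 5 genes, Ciita, Cd74, RT1-Bb, RT1-Db1 and RT1-DMb, every OV+E2 rat was below every OV rat, with or without OV replicate 3. In the authors' deposited values 4 of these genes kept that separation, and Cd74 did not. That pattern held for 4.00% of all tested probes with 9 arrays and for 5.41% without OV replicate 3; as the genes were selected on this contrast, nothing is read from the comparison. In whole tissue, fewer cells of a type and less RNA per cell cannot be told apart.

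**Figure D2:**
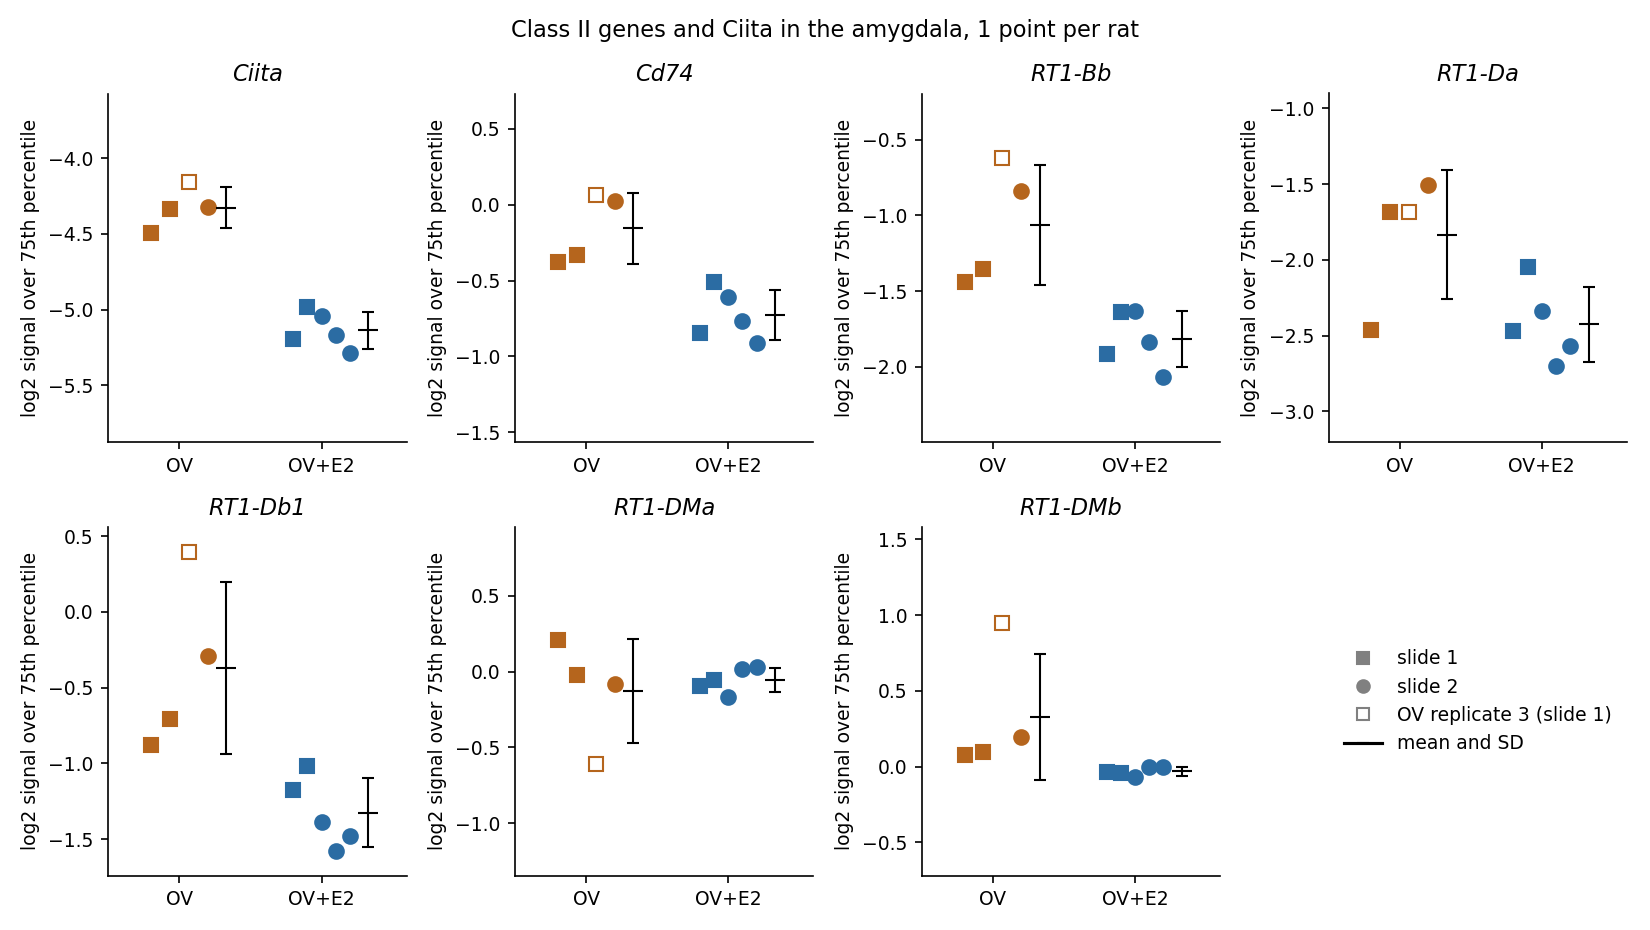
Signal of the 7 measured genes in each rat, as log2 of the signal over the 75th percentile of its array, with the mean and SD of each group; all panels span 2.3 log2 units. The OV+E2 rats lie below every OV rat for Ciita, Cd74, RT1-Bb, RT1-Db1 and RT1-DMb, while the groups overlap for RT1-Da and RT1-DMa.

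Ciita, the coactivator, was a dim gene. Its signal was 4.44, 4.96, 5.60 and 5.01% in OV replicates 1, 2, 3 and 5 and 2.74, 3.16, 3.04, 2.78 and 2.56% in OV+E2 replicates 1 to 5. The groups did not overlap, and the spread within each was small, with SDs of 0.14 and 0.12 on the log2 scale. The log2 difference was −0.81 (SE 0.10, 95% interval −1.04 to −0.57, n = 4 and 5), which is 1.75-fold more in OV. It was −0.76 within slide 1, −0.85 within slide 2 and −0.75 without OV replicate 3, the array on which the probe was not well above background. With normexp background correction, which adds an offset of 50 to the signal, it was −0.59, with a wider SE of 0.27. The difference after normexp was not computed without OV replicate 3, so how far it rests on that rat was not tested. The size and precision for this dim probe therefore depended on how the background was handled. The second Ciita probe was well above background on 0 of the 9 arrays and has no usable level in either group.

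Cd74, the invariant chain, is printed on each array as 10 spots, of which 9 or 10 were used. Its signal was 76.8, 79.4, 104.5 and 101.8% in OV and 55.7, 70.1, 65.6, 58.7 and 53.3% in OV+E2. The highest OV+E2 rat, replicate 2, came close to the lowest OV rat, replicate 1, but the groups did not overlap. In the authors' deposited table they did: OV replicate 3 was at 443 units there and OV+E2 replicate 2 at 459. The log2 difference was −0.57 (SE 0.14, 95% interval −0.88 to −0.27, n = 4 and 5) and −0.50 without OV replicate 3. It was −0.46 within slide 1 and −0.79 within slide 2. The spots of 1 array differed from each other by an SD of 0.039 to 0.073, well under the SD between rats, 0.23 in OV and 0.16 in OV+E2. 

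RT1-Bb, the beta chain of RT1-B, was at 36.8, 39.2, 64.9 and 55.8% in OV and at 26.6, 32.2, 32.2, 28.1 and 23.9% in OV+E2. All OV+E2 rats were below all OV rats, and OV replicates 3 and 5 were the highest. The log2 difference was −0.75 (SE 0.19, 95% interval −1.18 to −0.33, n = 4 and 5), and −0.60 without OV replicate 3. Within slide 1 it was −0.63 and within slide 2 −1.0. RT1-Ba, the alpha chain of the same pair, was well above background on 0 of 9 arrays, so the pair was measured through its beta chain only.

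RT1-Db1, the beta chain of RT1-D, had the widest difference of the 7 with all rats, and Ciita had without OV replicate 3. Its signal was 54.5, 61.2, 131.4 and 81.8% in OV and 44.4, 49.3, 38.3, 33.6 and 35.9% in OV+E2. The groups did not overlap, and OV replicate 3 was far above the other rats, though in the authors' deposited table it was at 473 units, under OV replicate 5 at 539. The log2 difference was −0.96 (SE 0.25, 95% interval −1.52 to −0.39, n = 4 and 5), or 1.94-fold, and −0.70 without that rat; it was −0.70 within slide 1 and −1.19 within slide 2. The probe sits on each array in 2 spots, which gave −0.85 and −1.07.

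RT1-Da, the alpha chain of RT1-D, was at 18.2, 31.1, 31.1 and 35.2% in OV and at 18.0, 24.2, 19.8, 15.4 and 16.9% in OV+E2. OV replicate 1 lay among the OV+E2 rats, so the groups overlapped. The log2 difference was −0.59 (SE 0.21, 95% interval −1.07 to −0.12, n = 4 and 5), with −0.32 within slide 1, −1.03 within slide 2 and −0.54 without OV replicate 3. The 2 spots of this probe disagreed more than those of any other of these genes measured on several spots: they differed by 1.28 log2 units on OV replicate 3 and by 0.84 on OV replicate 2. Taken spot by spot the difference was −0.69 and −0.41.

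The RT1-DM pair, which edits peptides rather than presenting them, stood nearer to 0. RT1-DMb was at 105.7, 106.8, 192.8 and 114.6% in OV and at 97.5, 97.1, 95.3, 99.7 and 99.9% in OV+E2. Every OV+E2 rat was lower, but by little except against OV replicate 3. The log2 difference was −0.36 (SE 0.18, 95% interval −0.76 to 0.04, n = 4 and 5) with that rat and −0.16 (SE 0.06) without it, so OV replicate 3 more than doubled it. Slide 1 gave −0.41 and slide 2 −0.22.
RT1-DMa was at 115.6, 98.3, 65.5 and 94.4% in OV and at 93.5, 96.1, 89.0, 101.0 and 102.1% in OV+E2. The groups overlapped. Its log2 difference was 0.07 (SE 0.16, 95% interval −0.28 to 0.42, n = 4 and 5), −0.09 without OV replicate 3 and −0.02 in the authors' deposited value table, so its sign was not settled. On OV replicate 3 the pair went apart, RT1-DMb being highest and RT1-DMa lowest of the 9 rats.

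**Figure D3:**
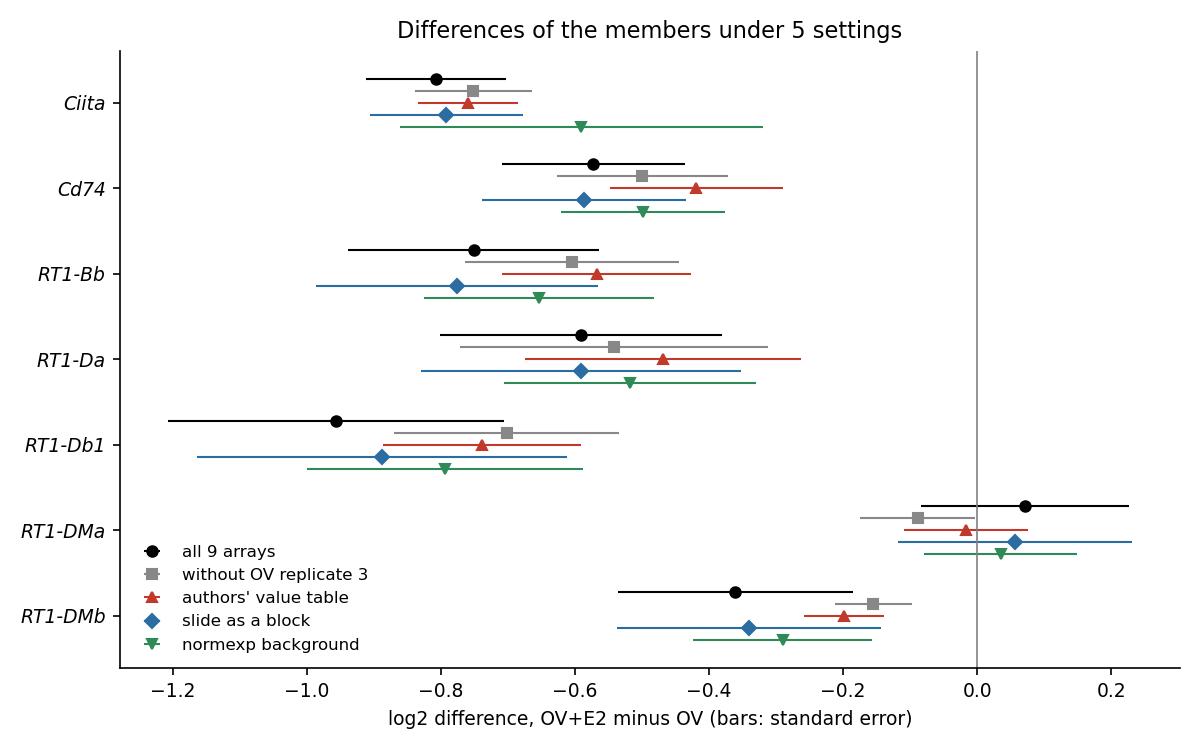
Log2 difference (OV+E2 minus OV) of the 7 genes with its standard error, under 5 settings: all 9 arrays, without OV replicate 3, the authors' value table, slide as a block, and normexp background correction. Ciita, Cd74, RT1-Bb, RT1-Da and RT1-Db1 lie below 0 in each, RT1-DMb lies nearer to 0, and RT1-DMa lies on both sides of it.

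How the genes varied from rat to rat within a group is not part of the contrast that selected them. Deviations from the group means were compared with those of Cd74, whose 10 spots make it the most repeated measurement, over the 8 arrays without OV replicate 3. RT1-Bb followed Cd74 most closely: Pearson r was 0.974 (exact within-group permutation p = 0.00278, adjusted 0.0167 over 6 pairs) and Spearman rho 0.952 (exact p = 0.00417, adjusted 0.025). Without the 2 arrays farthest from the median of Cd74, OV replicate 5 and OV+E2 replicate 2, r was 0.983. None of 12736 other named genes well above background on all arrays had a higher r with Cd74, the median of those genes being −0.083 and the 99th percentile 0.692. These correlations share arrays and scaling.

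Ciita came next among the class II genes, with r = 0.844 (exact permutation p = 0.0181, adjusted 0.0542) and rho = 0.905 (exact p = 0.00833, adjusted 0.025). Of the 12736 other named genes, 19 had a higher r with Cd74 than Ciita. The r of Ciita was 0.829 without the 2 farthest arrays, but 0.506 after normexp and 0.355 after quantile normalization. For this dim gene the relation thus depends on how the signal was scaled. RT1-Da (r = 0.749, rho = 0.762, exact permutation p = 0.0792 and 0.0681, adjusted 0.119 and 0.12) did not pass. RT1-Db1 (r = 0.745, rho = 0.714, exact permutation p = 0.0694 and 0.1, adjusted 0.119 and 0.12) did not pass either. Both rested on the 2 farthest arrays, without which r was 0.408 and 0.115. Among the other named genes, 69 had a higher r than RT1-Da and 72 a higher r than RT1-Db1.

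The RT1-DM genes did not follow Cd74 in this way. RT1-DMb had r = 0.315 and rho = 0.19 (exact permutation p = 0.583 and 0.749, both unchanged by adjustment), and r = −0.319 without the farthest arrays. RT1-DMa had r = −0.624 and rho = −0.714 (exact permutation p = 0.172 and 0.1, adjusted 0.207 and 0.12). Over all 21 pairs of the 7 genes the median r was 0.392, with a range from −0.829 to 0.974.

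**Figure D4:**
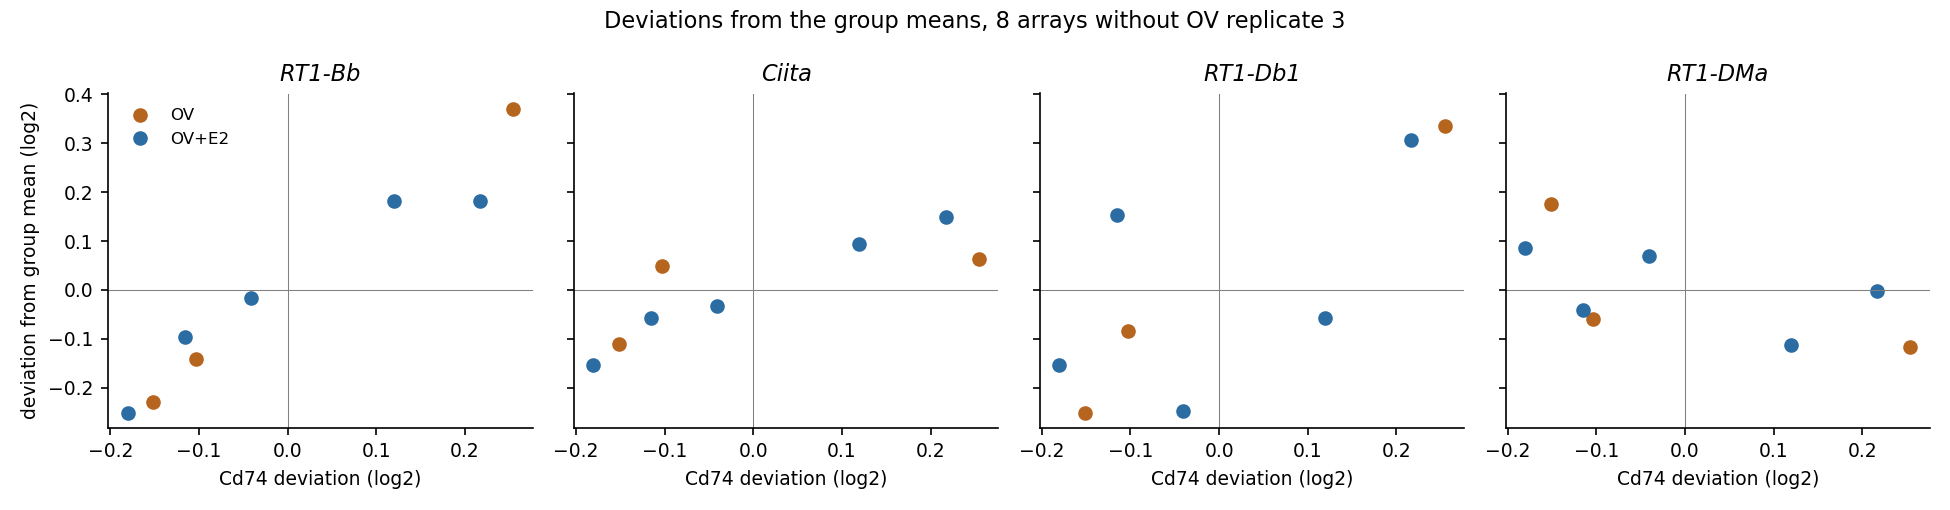
Deviation of RT1-Bb, Ciita, RT1-Db1 and RT1-DMa from the mean of their group against the deviation of Cd74, in log2 units, 1 point per rat for 3 OV and 5 OV+E2 rats. RT1-Bb lies close to a line (r = 0.974), Ciita and RT1-Db1 scatter more (0.844 and 0.745), and RT1-DMa slopes the other way (−0.624).

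The 8 genes outside this set with the highest r with Cd74 ranged from 0.922 to 0.877. They were Rpl36al-ps5, Asgr2, Cep57, Vom1r55, Bltp1, Or4c122, Cpox and Brca2. With OV replicate 3 included, r was under 0.2 for Rpl36al-ps5, Cep57, Bltp1 and Cpox, at 0.0973, −0.402, −0.23 and 0.187. It was 0.904 for Asgr2, 0.893 for Or4c122, 0.805 for Vom1r55 and 0.506 for Brca2. For RT1-Bb and Ciita it was 0.962 and 0.883, so of these 8 genes Asgr2 and Or4c122 still stood above Ciita.

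The other genes of the pathway were read from lists by function, and limma called 0 of their 36 measured genes over all tested probes. At an unadjusted p below 0.05, RT1-Db2, Rfxank and Cd4 were lower and Ctss and Cd274 higher, 13.9% of the measured genes, near the 10.4% of all tested probes. Of 5 further class II genes, RT1-Db2 and RT1-DOb were measured, RT1-DOa and RT1-Ha were not well above background on any array, and RT1-Hb had no probe. RT1-Db2, a second RT1-D beta gene, was at 13.3, 12, 9.56 and 15.7% in OV and 9.70, 11.3, 10.1, 7.86 and 9.03% in OV+E2. Its groups overlapped only through OV replicate 3, and the log2 difference was −0.38 (SE 0.16, adjusted p = 0.463 in limma) with all rats and −0.51 without that one. RT1-DOb, a chain of the DO pair that restrains DM, was at 0.41 (SE 0.34, adjusted p = 0.560) and 0.12 without OV replicate 3, with the opposite sign after normexp (−0.23) and in the authors' deposited table (−0.03).

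The factors that carry Ciita on class II promoters lay on both sides of 0. Of 11 such genes 10 were measured, 3 lower and 7 higher in OV+E2, with a median of 0.12, and of 0.05 without OV replicate 3. Rfx5, the DNA-binding chain of the RFX complex on the X box, was at 274, 283, 302 and 282% in OV and 290, 283, 297, 273 and 271% in OV+E2, a log2 difference of −0.01 (SE 0.08, adjusted p = 0.951), and of 0.02 without OV replicate 3. Rfxank, another RFX chain, was lower in every OV+E2 rat, at −0.26 (SE 0.09, adjusted p = 0.392; −0.22 without OV replicate 3), whereas the third, Rfxap, was at 0.49 (SE 0.23, adjusted p = 0.501) with all rats and 0.22 without OV replicate 3. Creb1, which also binds at the X box, was higher in every OV+E2 rat by its brightest probe, as were 2.88% of all tested probes, at 0.16 (SE 0.07, adjusted p = 0.496) with or without OV replicate 3. Its other measured probes ran from −0.47 to 0.17.

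Of 12 genes of interferon gamma signalling and of the Ciita promoters, 10 were measured, 5 lower and 5 higher, with a median of −0.02, and of 0.02 in the authors' deposited table. Irf1, a factor on the interferon-driven Ciita promoter, was at −0.17 (SE 0.14, adjusted p = 0.551), and at −0.03 without OV replicate 3 and 0.04 in the authors' deposited table. The receptor chain Ifngr1 was at 0.27 (SE 0.18, adjusted p = 0.525) and the kinase Jak2 at 0.34 (SE 0.20, adjusted p = 0.514). Without OV replicate 3 they were at 0.07 and 0.11. Spi1, the myeloid factor PU.1, was at −0.48 (SE 0.33, adjusted p = 0.529) with all rats and −0.08 without OV replicate 3. Ifng itself was well above background on 0 arrays.

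All 10 genes of endosomal processing were measured, 4 lower and 6 higher, with a median of 0.09; without OV replicate 3, 7 were lower and the median was −0.01. The protease Ctss, which trims the invariant chain, was at 1830, 1630, 1160 and 1590% in OV and 1960, 2070, 1770, 1910 and 1820% in OV+E2. Its log2 difference had the sign opposite to that of Cd74, at 0.31 (SE 0.14, adjusted p = 0.475), and at 0.18 without OV replicate 3. The other cathepsins named were Ctsh at 0.31 (SE 0.25, adjusted p = 0.548) and Ctsb at −0.24 (SE 0.20, adjusted p = 0.560). Ifi30, the endosomal thiol reductase, was at −0.15 (SE 0.13, adjusted p = 0.584). Without OV replicate 3 these values were 0.03 for Ctsh, −0.02 for Ctsb and −0.01 for Ifi30.

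Of 7 genes of costimulation and class II recognition 4 were measured, 2 lower and 2 higher, with a median of 0.10. Cd4, the coreceptor for class II, which rat macrophages and microglia can also carry, was at 173, 230, 359 and 200% in OV and 157, 159, 158, 189 and 152% in OV+E2. The groups overlapped, and the log2 difference was −0.51 (SE 0.20, adjusted p = 0.429), or −0.30 without OV replicate 3. Cd274 was at 0.35 (SE 0.14, adjusted p = 0.429), higher in every OV+E2 rat, and at 0.21 without OV replicate 3; its other probe was at −0.12. Icam1 was at 0.22 (SE 0.13, adjusted p = 0.515), and at 0.12 without OV replicate 3. Cd86 was well above background on 0 arrays.

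**Figure D5:**
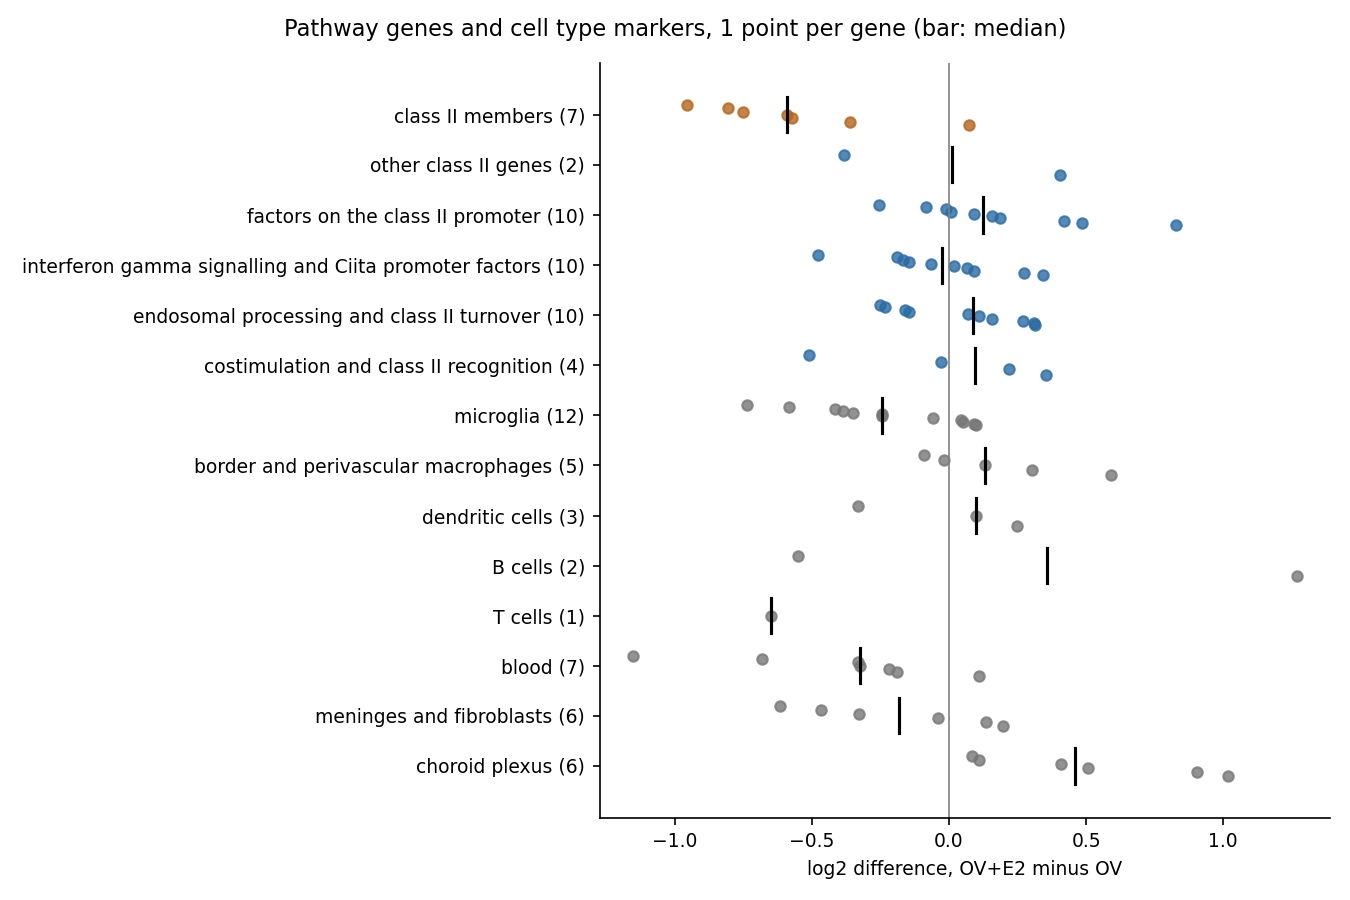
Log2 difference (OV+E2 minus OV) of each measured gene, 1 point per gene, for the class II genes and Ciita, 5 pathway lists and 8 lists of cell type markers, with the number of measured genes in parentheses and the median as a bar. The class II genes have a median of −0.59, the pathway lists medians from −0.02 to 0.12, and microglia −0.25.

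Markers of the cells that can carry class II were read beside these values. All 12 microglial markers were measured; 8 were lower in OV+E2, 5 of them at an unadjusted p below 0.05, and limma called 0. Over the array 45.5% of named genes were lower, and 7.17% of tested probes were lower at that p. Their median was −0.25, and −0.20 without OV replicate 3, when 10 were lower. Their summed signal was 4933 to 6906% in OV and 4124 to 4774% in OV+E2, so the groups did not overlap. Aif1 (IBA1) was at 661, 694, 860 and 642% in OV and 569, 611, 494, 549 and 501% in OV+E2, a log2 difference of −0.39 (SE 0.12, adjusted p = 0.318), and of −0.29 without OV replicate 3. Itgam (CD11b) was at −0.58 (SE 0.11, adjusted p = 0.251) by its brighter probe, −0.53 without OV replicate 3, and 0.01 by its other one. Cx3cr1 was at −0.74 (SE 0.29, adjusted p = 0.437) with all rats and −0.47 without OV replicate 3. The 4 markers that were not lower, named after their values were seen, were Tmem119 (0.10), Ptprc (0.09), Sall1 (0.05) and Csf1r (0.04).

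Set against these markers within each rat, the mean log2 signal of the 7 measured genes, Ciita included, minus that of the 12 microglial markers was −2.27 to −1.88 in OV and −2.46 to −2.30 in OV+E2. The groups did not overlap, with or without OV replicate 3, but OV replicate 1 (−2.27) and OV+E2 replicate 2 (−2.295) lay close together. As the 7 genes were selected on this contrast, nothing is read from that separation. The means differed by less (−2.05 and −2.38) than those of the 7 genes alone (−1.08 in OV and −1.65 in OV+E2). The part of the microglial markers in the class II values was not tested further.

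Few markers of the other possible carriers were measured. Of 7 markers of border and perivascular macrophages 5 were measured, with Cd163 at 0.30 (SE 0.14, adjusted p = 0.498) and F13a1 at 0.59 (SE 0.33, adjusted p = 0.514). Without OV replicate 3 they were at 0.19 and 0.21, and after normexp both had the opposite sign, at −0.20 and −0.18, as did the median of the list (0.13, then −0.17). Mrc1 was well above background on 0 arrays, and the summed signal was 107.5 to 122% in OV and 111 to 123% in OV+E2. Of 7 dendritic cell markers 3 were measured, with Batf3 at −0.33 (SE 0.12, adjusted p = 0.413) and Zbtb46 at 0.25 (SE 0.16, adjusted p = 0.525), or −0.26 and 0.13 without OV replicate 3. The second Zbtb46 probe had the opposite sign, at −0.99. Itgax was well above background on 1 array only, and the summed signal was 102 to 107.2% in OV and 100 to 123% in OV+E2. Of 7 B cell markers 2 were measured, and Ms4a1 was well above background on 0 arrays. Pax5 was at −0.55 (SE 0.25, adjusted p = 0.492), and at −0.29 without OV replicate 3. Cd79a, well above background on only 4 arrays, was at 1.59, 1.11, 3.3 and 0.771% in OV and 3.82, 2.99, 3.83, 3.45 and 3.49% in OV+E2. It may thus have passed the filter only through the group where it is higher, and nothing is read from its difference. That was 1.27 (SE 0.36), 1.66 without OV replicate 3 and −0.17 after normexp. The summed B cell signal was 52.8 to 138% in OV and 50.7 to 61.8% in OV+E2, nearly all of it from Pax5 (52 to 135% and 46.9 to 58%). Of 7 T cell markers 1 was measured, and the summed signal was 37.5 to 122% in OV and 36.5 to 43.6% in OV+E2.

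Markers of other cells and of tissue next to the amygdala also differed between the group means, and limma called none of them. Of 7 blood genes 6 were lower in OV+E2 (median −0.33), 5 of them at an unadjusted p below 0.05. At that p 7.17% of all tested probes were lower. All 7 blood genes were lower without OV replicate 3, and the median was −0.13 in the authors' deposited table. Their summed signal was 15037 to 16112% in OV and 10008 to 14017% in OV+E2. That sum is nearly all Hba-a1, with mean log2 signals of 7.22 in OV and 6.89 in OV+E2. The next brightest, Hbb, was at 1.79 and 1.89, so the sum says little about the other blood genes. Of 6 genes of meninges and fibroblasts 4 were lower (median −0.18), 3 of them at an unadjusted p below 0.05. Their summed signal was 2005 to 2608% in OV and 1671 to 1972% in OV+E2, with Col1a2 by far the brightest (mean log2 signal 3.93 and 3.60). Without OV replicate 3 all 6 were lower, with a median of −0.29. Col1a1 was at −0.62 and Col3a1 at −0.47, sizes within the range of the class II genes, and every OV+E2 rat was below every OV rat for both. That separation held for 4.00% of all tested probes, and both are named after their values were seen. Foxc1 was near 0 at −0.04, and the 2 higher genes were Dcn (0.20) and Lum (0.13). Of 5 endothelial genes 3 were lower (median −0.37), 2 of them at an unadjusted p below 0.05, and 4 without OV replicate 3 (median −0.18). The 2 below that p were Vwf and Slco1a4. Their other measured probes had the opposite sign, at 0.08 for Vwf and at 0.06 and 0.18 for Slco1a4. By their brightest probes all 5 neuronal genes were higher (median 0.30), and 4 of them without OV replicate 3 (median 0.17). Over the array, 45.5% of named genes were lower. Other probes had the opposite sign for Gad1 (−0.74), Syt1 (−0.38 and −0.16) and Slc17a7 (−0.11), and that of Rbfox3 was at 0.03. All 6 choroid plexus genes were higher (median 0.46, and 0.83 without OV replicate 3), but their summed signal ran from 1353 to 75333% among the OV rats alone and from 25569 to 48138% in OV+E2. The part of these cells and tissues in the class II values was not tested.

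On rn4 the class II genes other than Cd74 and Ciita share a stretch of chromosome 20, and the probes from RT1-Da to RT1-Ha start between positions 4641104 and 4902819. That stretch held 21 probes, of which 16 were tested and 11 of these belonged to none of the genes selected at the start. The 11 include RT1-Db2 and RT1-DOb, the further class II genes above, and Tap2, Psmb8 and Brd2 are counted through several probes each. Of the 11, 7 were lower in OV+E2, with a median log2 difference of −0.35 and a range from −0.74 to 0.41. Over all tested probes 49.9% were lower.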

How the data were processed

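Amygdala RNA of 9 rats was read on 1-colour Cy3 Agilent arrays, and samples were grouped by their labels as OV (4) and OV+E2 (5). The authors deposited scanner files whose processed spot signal is a background-subtracted intensity from Feature Extraction, version 10.7.3.1 per the file headers and 9.1 per the submitters' processing notes. The authors' value table, on an intensity scale, served as an alternative (the sources used here do not give its normalization), and its column for OV replicate 3 differs from that rat's scanner file.

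Of 62976 spots per array, 4259 control spots and outlier spots were left out, and spots of 1 probe were averaged. From each log2 value the array's 75th percentile was subtracted. The comparison of OV+E2 with OV used limma 3.58.1 (lmFit, then eBayes; group was the single term; R 4.3.3, data.table version 1.17.8), and Benjamini-Hochberg adjustment ran over 30215 probes. A gene with several probes was represented by its brightest tested probe. Names came from the accession (21184 probes), symbol (9060) or synonym (406) in RefSeq, and 14948 probes were not matched. Replicates were separate rats, and their number limits the precision.

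The genes described and all gene lists were chosen with earlier results of these data known. Named from the pathway lists were the 3 genes of smallest p in each, and Rfx5, Ifngr1, Irf1, Spi1, Ctss, Ifi30, Cd86, RT1-DOa and RT1-DOb. Named from the microglia, macrophage, dendritic and B cell markers were the 2 of largest difference in each, and Aif1, Itgam, Cd163, Mrc1, Itgax and Ms4a1; some genes of the rule are not reported here. The 8 genes most like Cd74 were also named. RT1-Db2, Ifng and a few others named only as measured or not measured follow from the lists. Alternatives were normexp with an offset of 50, quantile and median scaling, other filters, the authors' table, slide or replicate number as a block, array weights, single slides, the mean of a gene's probes, and each rat left out.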

Additional observations from a re-analysis of the deposited data

Results flagged for a closer look

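Within groups of 4 or 5 rats, 7 of 68 gene and group combinations had 1 rat far from the others by Dixon's test, which chance gives in about 1 of 20 groups. Values are log2 signal over the 75th percentile of the array. RT1-DMb, a chain of the peptide exchange pair, was at 0.947 on OV replicate 3, against 0.197 in the next highest OV rat. Irf1 was at 0.939 on OV replicate 3, against 0.429 in the next. Spi1 was at −2.22 on OV replicate 3, against −3.77 in the next. Jak2 was at −1.37 on OV replicate 3, the lowest OV rat, against −0.471 in the nearest. Cd274 was at −2.09 on OV replicate 3, also the lowest, against −1.58. Zbtb46 was at −1.64 on OV replicate 3, again the lowest, against −1.19. Cd4 was at 0.917 on OV+E2 replicate 4, the highest of its group, against 0.671 in the next. Of these 7 values, 6 lie on OV replicate 3, the array with the lowest signal.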

How the results depend on the processing

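The median log2 difference of the 7 measured genes, −0.59, stayed negative in every alternative run; it was −0.85 within slide 2, which holds a single OV rat, and lay between −0.80 and −0.51 when each rat was left out in turn (without OV replicate 1 and without OV replicate 5). Median scaling moved the median of all tested probes to 0.11 and that of the class II genes to −0.49, and normexp moved them to −0.11 and −0.52. Ciita was at −0.59 after normexp and −0.65 after quantile normalization. The count of called probes over the array, 0, became 9 (all lower) with no filter on dim probes, 70 (23 higher, 47 lower) in the authors' table and 3499 (1223 higher, 2276 lower) with array weights, and lay between 0 and 1 when each rat was left out. Added after seeing the data and without OV replicate 3, array weights gave 16 calls, and the authors' values and slide as a block gave 1 each. Array weights called 5 pathway genes, RT1-Db2, Cd4, Nfya, Rfxap and Cd274, and 0 without OV replicate 3. The cause of these shifts was not tested. Deviations of same-numbered rats correlated at 0.17, −0.076, −0.0109 and 0.105 for numbers 1, 2, 3 and 5. These values gave no sign that the numbers pair the rats, but they cannot exclude it, as the labels do not give litter or cage. With the replicate block the median of the class II genes was −0.56 and 0 probes were called. The dim genes Ciita, RT1-DOb and Cd79a are limited by signal over background, and RT1-Ba could not be measured.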
